A study of Mus musculus with 4 samples.

Results

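The 84 genes described here encode the proteins of the cytosolic ribosome, 52 of the large subunit and 32 of the small, among 20284 genes that the array names. They were chosen by symbol alone: Rpl or Rps followed by a number, together with Rplp0, Rplp1, Rplp2 and Rpsa, without pseudogenes whose symbol ends in ps and without the Rps6k kinases. Among RefSeq gene symbols 91 match, and 7 of them (Rpl32l, Rpl32p, Rpl6l, Rps12l1, Rps23, Rps3a2 and Rps3a3) have no named probe on this array. One gene kept by the rule, Rps4l, is annotated as a pseudogene. Of the 84 genes, 81 gave signal well above background on all 4 arrays. Rpl3l and Rpl39l did so on 2 arrays each, and Rpl10l did so on none and is left out of all differences.

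RNA came from 4 fractions sorted from the marrow of female C57BL6 mice aged 8 weeks, with no other genotype or treatment named. The long-term stem cell fraction (LT-HSC) was negative for CD34 and lineage markers and positive for c-Kit and Sca-1, and short-term stem cells (ST-HSC) shared that profile but carried CD34. Progenitors were positive for c-Kit and lacked lineage markers. A text common to all samples calls that fraction Sca-1-negative and also mentions lineage-positive cells, so its gate is not certain. The differentiated fraction (Lin+) carried lineage markers and is therefore a mixture of maturing blood cells. Each fraction was hybridised to 1 single-colour Agilent array, labelled replicate 1, and the labels do not say how many mice were pooled. The differences therefore carry no test. Values are log2 signal relative to the 75th percentile of the same array, and the value after ± is the scanner software's spot error, which leaves out the spread between mice. The array ranks a gene across fractions, not one gene against another, since probes differ in brightness. In such bulk RNA, fewer cells of a type and less RNA per cell cannot be told apart.

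Ribosomal proteins assemble with ribosomal RNA in the nucleolus into a small subunit, which reads the message, and a large subunit, which joins the amino acids. Their messenger RNAs are among the most abundant in a cell and mostly start with a run of pyrimidines, the 5′ terminal oligopyrimidine (TOP) motif, through which mTOR and the RNA-binding protein LARP1 control their translation. In blood the set is best known from Diamond-Blackfan anaemia, in which loss of 1 copy of a ribosomal protein gene blocks red-cell formation. Blood stem cells are known for a low rate of protein synthesis that increases in their progeny.

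What these genes share in sequence is visible at their start sites. Of the 84, 63 had an entry in a RefSeq promoter table for build GRCm38.p6. A run of at least 7 pyrimidines lay between 20 bases before and 10 bases after the start in 34 of these 63 genes (54.0%), against 21.9% of the 27025 genes in that table. The ETS core CGGAAG, searched on both strands from 250 bases before to 50 after the start, was in 61.3% of the members' 75 promoters and in 16.9% of all 32851 promoters. GC boxes (GGGCGG) were in 60% and 35.7%, the YY1 motif AAGATGG in 16% and 6.34%, and TATAAA in 9.33% and 13.6%, on both strands of the same window. None of these motifs contains another. A match is a run of letters, not a shown binding site. The 60 bases around 8 starts, 40 before and 20 after, are given on the strand of the gene, with the longest pyrimidine run between 20 bases before and 10 after the start in capitals. Rpl12, Rpl35, Rpl38 and Rps10 were picked as examples with a run of at least 7, which 29 of the 63 genes lack, among them Rpl11 (6 bases) and Rplp0 (5). The other 4 sequences, Rps27 with Rps27l and Rpl39 with Rpl39l, are pairs whose copies differed across the fractions.
Rpl12, chr2:32961672-32961731, plus strand: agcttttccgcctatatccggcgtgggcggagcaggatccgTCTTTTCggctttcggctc
Rpl35, chr2:39005112-39005171, minus strand: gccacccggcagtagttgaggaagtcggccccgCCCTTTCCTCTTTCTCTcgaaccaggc
Rpl38, chr11:114668540-114668599, plus strand: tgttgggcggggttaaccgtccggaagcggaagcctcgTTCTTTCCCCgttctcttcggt
Rps10, chr17:27635225-27635284, minus strand: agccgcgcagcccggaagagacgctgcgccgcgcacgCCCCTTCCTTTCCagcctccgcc
Rps27, chr3:90213629-90213688, minus strand: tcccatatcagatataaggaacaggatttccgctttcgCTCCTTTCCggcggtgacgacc
Rps27l, chr9:66946046-66946105, plus strand: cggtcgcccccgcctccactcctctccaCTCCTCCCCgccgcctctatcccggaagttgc
Rpl39, chrX:37085203-37085262, minus strand: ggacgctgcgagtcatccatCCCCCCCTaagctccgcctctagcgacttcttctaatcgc
Rpl39l, chr16:10170188-10170247, plus strand: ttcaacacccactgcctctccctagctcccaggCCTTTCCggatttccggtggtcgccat
Within that search window the run of Rpl35 was 17 bases long, that of Rps10 13, that of Rpl38 10 and that of Rpl12 7. Rps27 and Rps27l each held a run of 9 bases, and the Rps27l window is 1 of 2 starts in the table. The run of Rpl39 was 8 bases and that of Rpl39l 7. The window ended inside the runs of Rpl35 and Rpl39, which measured 18 and 9 bases when followed past its edge.

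Marker genes followed the sort only in part. Cd34 signal was 7.34 in LT-HSC and 8.53 in ST-HSC, and Kit was 5.63, 5.004, 4.42 and 1.67 from LT-HSC to Lin+. Ly6a (Sca-1) was at -1.40 in ST-HSC minus LT-HSC, although both fractions were sorted as Sca-1-positive. Ptprc was at -1.88 in progenitors minus ST-HSC and at 3.51 in Lin+ minus progenitors. Of 4 stem cell genes compared in progenitors minus ST-HSC, 2 were at least 2-fold higher, led by Vwf (4.59), and 2 lower, led by Hlf (-3.20). All 7 measured red-cell markers and all 6 neutrophil markers were above background in Lin+ cells. In LT-HSC, Alas2, Slc4a1, Epb42 and Hbb-bs, of the red-cell list, were not well above background. On each array 40.9% to 45.9% of probes and 11667 to 12470 named genes were well above background, no spot was saturated, and the brightest member probe, at 325970 to 459854 intensity units, stayed below the top of the spike-in controls' linear range (517261 to 533053).

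The ribosomal protein genes took 27.4% of the summed signal of all named genes in LT-HSC, and the ST-HSC array gave 25.002%, the progenitor array 25.6% and the Lin+ array 15.8%. This share does not depend on how arrays are scaled to each other by a constant. The Lin+ array lay apart from the 3 immature fractions. The 130 other genes of similar brightness (mean level of at least 8) took 26.3%, 28.6%, 30.6% and 28.2% in the same order. The mitochondrial ribosomal protein genes took 0.645%, 0.724%, 0.882% and 0.509%. In Lin+ cells the red-cell markers took 2.41% of the signal and the neutrophil markers 2.01%, against at most 0.0159% and 0.0376% in the other fractions. Their part in the members' lower share was not tested.

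**Figure D1:**
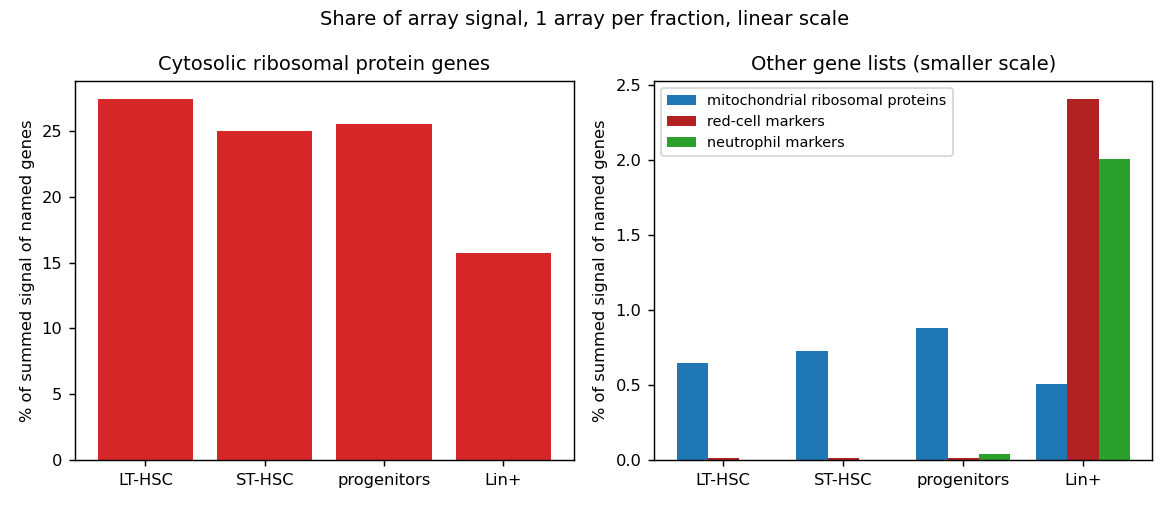
Share of the summed linear signal of all named genes, in percent, taken by the cytosolic ribosomal protein genes (left) and by mitochondrial ribosomal protein genes, red-cell markers and neutrophil markers (right, smaller scale), 1 array per fraction. The cytosolic set took 25.002% to 27.4% in the 3 immature fractions and 15.8% in Lin+ cells.

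Gene by gene, most members kept the same order of fractions. With the 75th-percentile scale the median level was 9.80 on both stem cell arrays, 10.28 on the progenitor array and 8.98 on the Lin+ array. Of 83 genes compared, 79 were highest in progenitors, against 40.8% of all genes above background on every array, and 82 were lowest in Lin+ cells, against 47.8%. Progenitors above and Lin+ below both stem fractions was the order of 79 members, against 24.5% of all genes. The lead of progenitors depended on the scale: 17 members were highest there after quantile normalization and 15 when arrays were scaled to the spike-in controls, so it is given here as a property of the percentile scale. The 4 genes that broke the order were Rpl21 and Rps4l, highest in LT-HSC, Rpl39l, highest in ST-HSC, and Rpl3l, highest in Lin+.

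**Figure D2:**
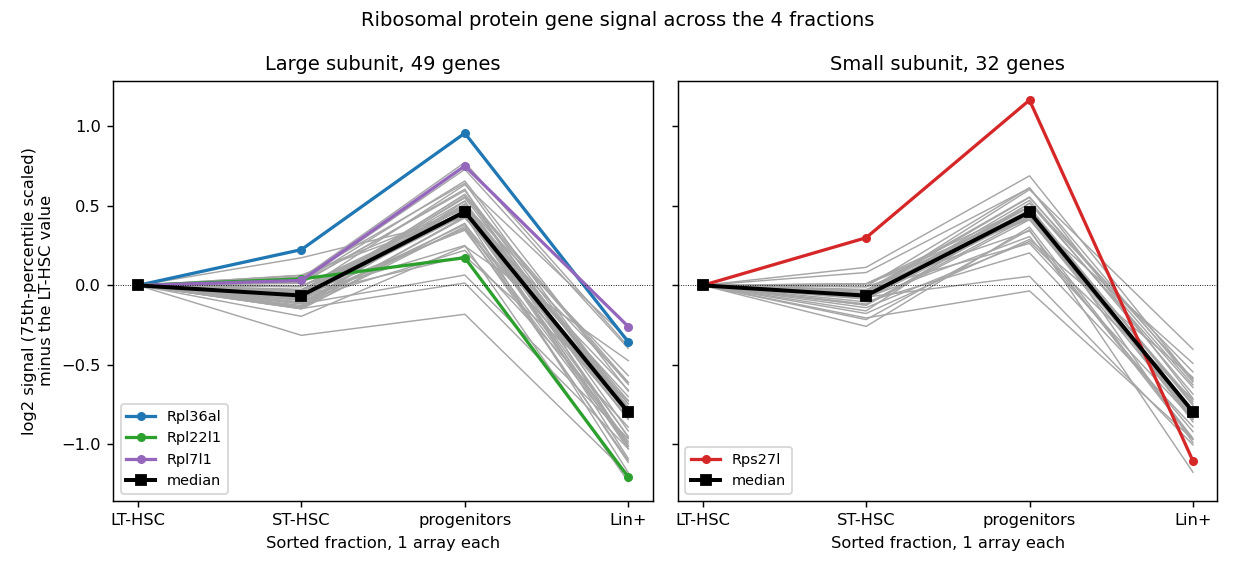
Log2 signal (75th-percentile scale) of each gene above background on all arrays, minus its LT-HSC value, across the 4 fractions, for 49 large-subunit and 32 small-subunit genes. Grey lines are single genes, black squares the median and coloured lines paralogs. The lines run close together, and Rps27l spans the widest range in the small subunit.

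ST-HSC were set against LT-HSC to ask whether the set differs between CD34-positive and CD34-negative stem cells. The median difference was -0.06, with quartiles of -0.11 and -0.01, and the error of a single difference was 0.20. Only Rpl39l was at least 2-fold higher, where 5.81% of all genes were, and 0 members were at least 2-fold lower, where 9.01% were. Compared with the median gene (0.03), 70 of 83 members lay below, against 50.5% of all genes. The sign against 0 depended on the scale, since the median was 0.25 with spike-in scaling, while its distance of -0.09 from the median gene was the same for every constant scale and -0.04 after quantile normalization, with 53 of 83 members below. Without the background filter the direction turned, and 79 of 84 members lay above the median gene, by 0.14 at the median, so their side of it is not settled. Of all genes past 2-fold, 39.2% were higher, and 63.1% with spike-in scaling.
The genes furthest below were Rpl21, of the large subunit, at -0.31 ± 0.20, Rps21 at -0.26, Rps18 at -0.22 and Rps4l at -0.20. Those furthest above were the paralogs Rpl39l, Rps27l (0.30) and Rpl36al (0.22), followed by Rpl4 (0.17), which lines the exit tunnel. All 6 paralogs that could be compared were above the median gene, where 49.5% of all genes were. Rpl7l1 and Rpl22l1 were so by only 0.003 and 0.01, and the values of Rpl3l and Rpl39l are bounds. Apart from Rpl39l, none of the differences named here was larger than 0.31 in size, beside an error of 0.20.

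In progenitors compared with ST-HSC the set was higher on the percentile scale. The median was 0.53 (1.45-fold), with quartiles of 0.43 and 0.60. The step was even: 0 members reached 2-fold higher, where 10% of all genes did, and only Rpl39l was 2-fold lower, where 10.2% were. The median gene was itself at 0.21, and 75 of 83 members lay above it, against 48.1% of all genes. With spike-in scaling the median member was at -0.09 and after quantile normalization at -0.03, so the direction against 0 is not settled. Nor is the side of the median gene, above which lay 35 of 83 members after quantile normalization and 55 of 84 without the background filter. Of all genes past 2-fold, 49.7% were higher, 29.7% with the percentile over detected probes, 38.9% after quantile normalization and 13.8% with spike-in scaling. Set against the 130 other bright genes, whose median was 0.58, the 76 standard ribosomal protein genes of that brightness (median 0.53) did not stand above them.
Rps27l had the largest difference at 0.87 ± 0.20, then Rpl36al (0.73), Rpl8 (0.73), a core large-subunit protein, and Rpl7l1 (0.72). The smallest differences among the standard genes were those of Rps3a1, Rpl21, Rpl5 and Rpl17, at 0.13, 0.13, 0.16 and 0.18. The paralog Rpl22l1 was also at 0.13. Rps3a1 and Rpl21 are both hosts of small nucleolar RNAs, but across the 30 members whose span holds such a gene the median (0.54) was that of the 53 others (0.53).

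Lin+ cells had less ribosomal protein signal than every other fraction. Compared with progenitors, the median was -1.25 (2.37-fold lower), the quartiles were -1.35 and -1.12, and 75 of 83 members were at least 2-fold lower, where 26.4% of all genes were. Rpl3l alone was higher by that factor, where 14.5% were. With the median gene, at -0.42, set to 0, 15 members were still 2-fold lower, where 14.1% of all genes were. Below the median gene lay 82 of 83, against 46.9% of all genes, and 54 of 83 after quantile normalization, when the distance between the medians was -0.07 in place of -0.83. The count depended strongly on the scale, with 17 members past 2-fold when the percentile was taken over detected probes, 5 with spike-in scaling and 2 after quantile normalization, although the median was below 0 in each case (-0.86, -0.64 and -0.26). Of all genes past 2-fold, 35.4% were higher, 58.5% with the detected-probe percentile, 45.6% after quantile normalization and 71.0% with spike-in scaling.
The lowest was Rps27l at -2.27 ± 0.20. Rpl12, at -1.62, Rpl11, which signals ribosome stress to p53, at -1.62, and Rpl14 at -1.62 followed. The smallest differences by the brightest probe were those of Rpl23 (-0.72), another Mdm2-binding protein, Rps27 (-0.87), Rpl7 (-0.91) and Rps24 (-0.92). Other probes did not all share this rank. A dimmer Rpl23 probe gave 4.68 in progenitors and 3.37 in Lin+ cells, and the other Rps24 probes were at -1.19 and -3.61.

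The difference between the ends of the series does not pass through the progenitor array. Lin+ minus LT-HSC had a median of -0.79 (1.73-fold lower), with quartiles of -0.96 and -0.66, over 82 members. Only 15 reached 2-fold lower, where 23.2% of all genes did, and Rpl3l was higher, where 16.1% were. Below the median gene (-0.21) lay 81 of 82, against 47.8% of all genes. After quantile normalization 57 of 82 lay below it, with the distance between the medians at -0.16 in place of -0.59, and without the background filter 74 of 84 did. With the median gene at 0, 1 member was 2-fold lower, where 18.6% were. Of all genes past 2-fold, 41.0% were higher, and 55.4% with spike-in scaling.
Rpl36a, Rpl22l1, Rpl21 and Rpl11 were lowest, at -1.23, -1.21, -1.19 and -1.18. Rpl3l, Rpl7l1, Rplp0 and Rpl36al were highest, at 1.18, -0.26, -0.34 and -0.36.

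**Figure D3:**
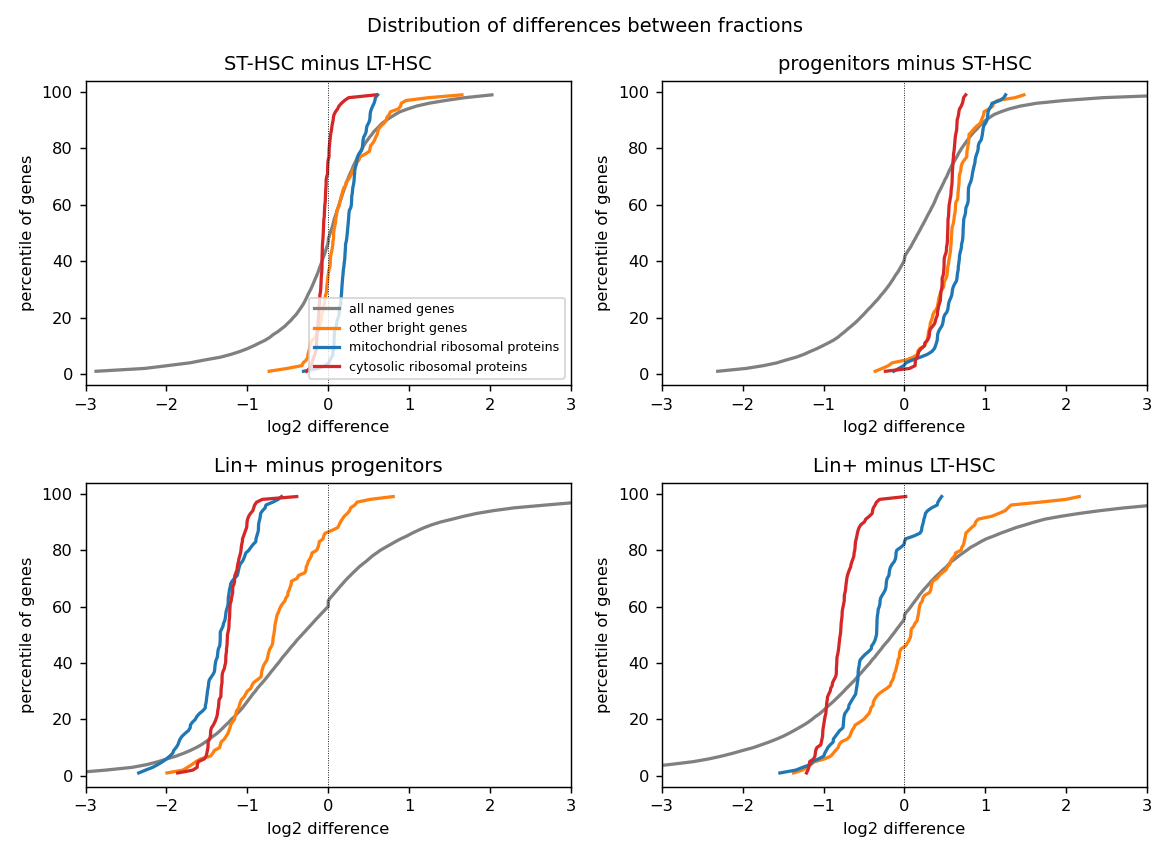
Cumulative distributions (percentiles 1 to 99) of the log2 difference in each comparison, for all named genes, 130 other genes of at least the same brightness limit, mitochondrial and cytosolic ribosomal protein genes. The cytosolic curve is steep, and in Lin+ minus LT-HSC it lies left of both the mitochondrial and the other bright genes through the middle of the range (medians -0.79, -0.35 and 0.08).

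Brightness alone was examined because nearly all members are among the brightest genes. In Lin+ minus LT-HSC the 130 other genes with a mean level of at least 8 had a median of 0.08, and all 76 members of that brightness lay below it (median -0.79). The gap of -0.87 between both medians was the same with every constant scale, -0.87 with normexp and -0.83 after quantile normalization. In Lin+ minus progenitors the gap was -0.57, and -0.48 after quantile normalization, when 75 of 76 members lay below. Gene length gave a similar picture in the fifth of genes with the shortest span. In Lin+ minus LT-HSC the other genes there had a median of -0.11, against -0.79 for the 76 members it held. In Lin+ minus progenitors the medians were -0.50 and -1.25, with 77 members. The limit of 8 was chosen after the data had been seen.

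**Figure D4:**
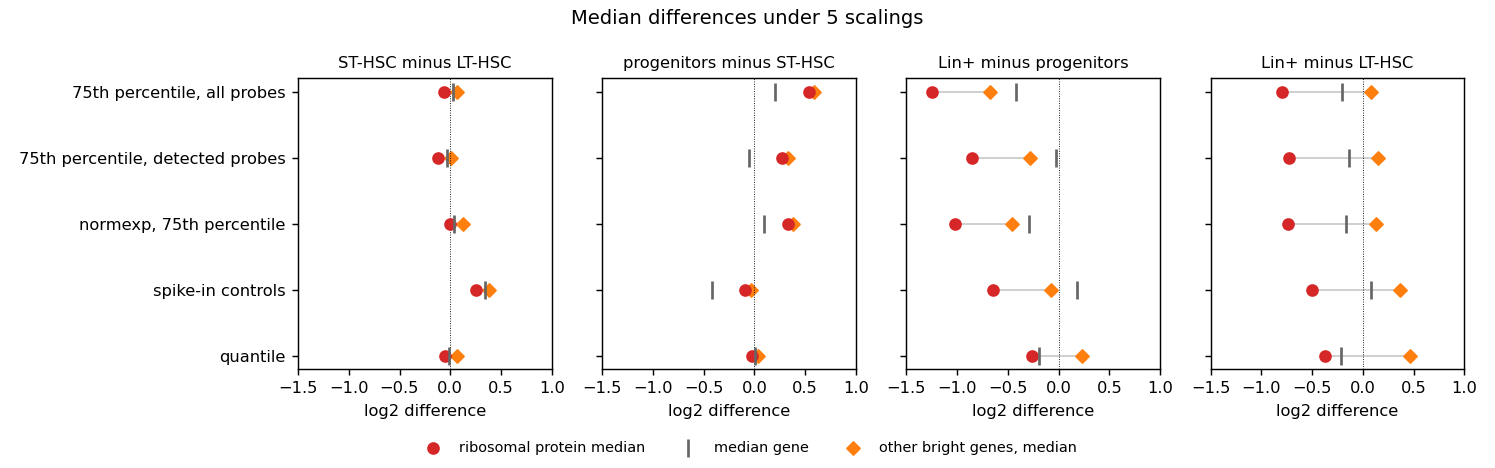
Median log2 difference of the ribosomal protein genes (red), the median gene (grey bar) and the 130 other bright genes (orange) in each comparison under 5 scalings. In both comparisons with Lin+ cells the red points lie left of the orange ones under every scaling, whereas in progenitors minus ST-HSC their side of 0 changes.

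By position in the ribosome the medians lay close together. Counts of genes 2-fold lower in Lin+ minus progenitors are set here and in the lists that follow beside the 26.4% of all genes called so, or 14.1% with the median gene at 0. For Lin+ minus LT-HSC these shares were 23.2% and 18.6%. The 46 standard large-subunit genes had a median of -1.25 in Lin+ minus progenitors and the 30 small-subunit genes -1.22. In Lin+ minus LT-HSC the medians were -0.80 and -0.77, with 11 and 2 genes at least 2-fold lower, or 1 and 0 with the median gene at 0.
The P-stalk, formed by Rplp0, Rplp1 and Rplp2, recruits elongation factors. Rplp0 gave 10.78, 10.75, 11.42 and 10.45 from LT-HSC to Lin+, Rplp1 10.29, 10.22, 10.86 and 9.496, and Rplp2 10.88, 10.79, 11.44 and 10.26. All 3 shared the progenitor maximum, and Rplp0 was the standard gene least reduced between LT-HSC and Lin+ (-0.34 ± 0.20).
Rpl5 and Rpl11 carry 5S ribosomal RNA and can hold Mdm2. Rpl5 gave 8.31, 8.16, 8.32 and 7.28, and Rpl11 gave 10.71, 10.64, 11.15 and 9.54. Both reached 2-fold lower in Lin+ minus LT-HSC (-1.03 and -1.18), and 0 did with the median gene at 0. In progenitors minus ST-HSC, Rpl11 was at 0.52 and Rpl5 at 0.16, on the percentile scale.
Around the peptide exit tunnel, all 8 listed genes had 2-fold less signal, or lower still, in Lin+ cells than in progenitors (median -1.32), and 2 with the median gene at 0. Rpl22 gave 9.73, 9.72, 10.21 and 8.71, and Rpl26 gave 9.56, 9.45, 9.92 and 8.46. Between LT-HSC and Lin+ cells, Rpl4, which reaches deep into the tunnel, differed least (-0.66) and Rpl26 most (-1.10).
At the decoding site and mRNA channel, 5 of 5 measured genes (Rps2, Rps3, Rps15, Rps26 and Rps27a) were 2-fold lower in Lin+ cells than in progenitors, between -1.35 and -1.25, a range narrower than the error of 1 difference, and 0 with the median gene at 0. Rps27a is made as a fusion with ubiquitin and gave 10.74, 10.69, 11.23 and 9.98.

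Genes mutated in Diamond-Blackfan anaemia followed the rest. Of 19 listed genes, 17 reached 2-fold lower in Lin+ minus progenitors (median -1.27), the exceptions being Rps27 (-0.87) and Rps24 (-0.92), and 3 did with the median gene at 0. For Rps24 this holds for the brightest probe only, since its other probes were at -1.19 and -3.61. Rps19, the gene most often mutated in the disease, gave 8.89, 8.90, 9.38 and 7.90 in that order of fractions. Its difference of -1.48 ± 0.20 between Lin+ cells and progenitors was larger than the members' median by little more than the error. Rps26 gave 10.15, 10.14, 10.76 and 9.44, and Rpl35a gave 9.33, 9.28, 9.79 and 8.54. Against LT-HSC, 3 of the 19 genes were 2-fold lower in Lin+ cells, Rpl11, Rpl26 and Rpl5, where 23.2% of all genes were. With the median gene at 0 there were 0. Tsr2, the chaperone that delivers Rps26 and is itself mutated in the disease, gave 0.25, -0.17, -0.31 and -2.47, and was thus lowest in Lin+ cells by -2.16 ± 0.26 against progenitors.

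Among the paralogs, gene copies related to another ribosomal protein gene, some members parted from the rest. Rps27l, a copy of Rps27 known as a p53 target, gave 7.03, 7.32, 8.19 and 5.92 from LT-HSC to Lin+. Rps27 gave 10.61, 10.44, 10.90 and 10.03. Rps27l thus spanned more of the scale, and in Lin+ minus progenitors it was lower than Rps27 by a difference of -1.40 ± 0.29, which was -1.81 after quantile normalization.
Rpl36al gave 7.11, 7.34, 8.07 and 6.75, and Rpl36a gave 9.08, 9.02, 9.33 and 7.85. Between LT-HSC and Lin+ cells Rpl36al was less reduced than Rpl36a by 0.88 ± 0.29, or 0.42 after quantile normalization.
Rpl39l, a copy of Rpl39 best known from testis, gave -2.56, -0.66, -1.69 and -3.60 and was well above background in ST-HSC and progenitors only. It was at least 3.73-fold higher in ST-HSC than in LT-HSC, -1.03 ± 0.27 different in progenitors from ST-HSC, and at least 3.41-fold lower in Lin+ cells than in progenitors. Rpl39 itself gave 9.81, 9.88, 10.26 and 8.86 and did not share the ST-HSC maximum. With normexp background correction, which compresses dim probes, the Rpl39l gap to Rpl39 in ST-HSC minus LT-HSC was 0.72 in place of 1.83.
Rpl3l, the muscle form of Rpl3, gave -3.19, -2.81, -3.60 and -1.76, and was well above background in ST-HSC and Lin+ cells only. It was at least 2.27-fold higher in Lin+ cells than in LT-HSC and at least 2.16-fold higher than in progenitors, opposite to Rpl3, which gave 9.59, 9.53, 9.94 and 8.58.
Rpl22l1 (8.14, 8.18, 8.31 and 6.93) and Rpl7l1 (0.27, 0.30, 1.02 and 0.01) differed from Rpl22 and Rpl7 by at most 0.47 in any comparison, beside an error of 0.29. After quantile normalization the gap of Rpl7l1 to Rpl7 in Lin+ minus progenitors was -1.11 in place of -0.10. With the mean of all probes, the gap of Rpl22l1 to Rpl22 in Lin+ minus LT-HSC was 0.81 in place of -0.19, because a second Rpl22 probe read differently, as given next. Near-identical copies and processed pseudogenes are common in this family, and whether a probe also binds them was not examined.

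Different probes of the same gene mostly gave the same answer. Of the 50 members with more than 1 probe above background on all arrays, the median spread of Lin+ minus LT-HSC between probes was 0.17, against 0.39 over all 2480 such genes. In 78 of 85 second probes Lin+ was at least 2-fold lower than progenitors on the percentile scale, where 26.4% of all genes were. Second probes share the scale of their array, and this count was not repeated under other scales.
Rps24 was the exception, singled out after its values were seen. The array carries 3 Rps24 probes, each listed under a different RefSeq transcript. The probe under NM_207635, the brightest over the 4 arrays and so the one used, gave 10.43, 10.40, 10.86 and 9.94 from LT-HSC to Lin+. The probe under NM_207634 gave 8.75, 8.78, 9.15 and 7.96. The probe under NM_011297 gave 10.54, 10.17, 8.04 and 4.43, which are processed intensities of 284381, 249783, 36171 and 4954. Both former probes followed the other ribosomal protein genes, and the NM_011297 probe was lower at each step.
Between LT-HSC and Lin+ cells the NM_011297 probe was 69.1-fold lower (-6.11 ± 0.20), the NM_207635 probe 1.40-fold and the NM_207634 probe 1.73-fold. The gap between the NM_011297 and NM_207635 probes was -0.34 ± 0.29 in ST-HSC minus LT-HSC, -2.59 in progenitors minus ST-HSC, -2.69 in Lin+ minus progenitors and -5.62 in Lin+ minus LT-HSC. As a gap within arrays it does not depend on a constant scale, and it was -5.62 with normexp and -5.97 after quantile normalization. Rps24, whose pre-mRNA is known to be alternatively spliced near its 3′ end, had the largest spread between probes of the 50 members (5.62), and the next were Rpl22 (2.004), Rpl15 (1.46) and Rpl23 (1.38). Which exons each probe covers is not given in the sources used here.

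**Figure D5:**
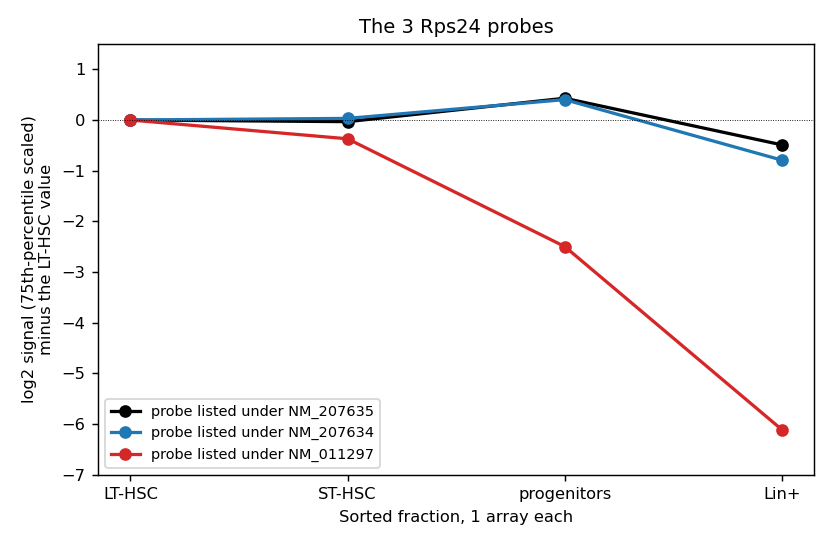
Log2 signal (75th-percentile scale) of the 3 Rps24 probes minus their own LT-HSC value across the 4 fractions, 1 array each, named by the transcript under which the array lists them. The probe under NM_011297 reaches -6.11 in Lin+ cells, and the others stay between -0.79 and 0.43.

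In Rpl22 the second probe gave 5.64, 5.30, 4.93 and 2.63 and was 8.10-fold lower in Lin+ cells than in LT-HSC, against 2.02-fold for the bright probe. Of 19 second probes of members that were at least 3 log2 units dimmer than the brightest, 15 were lower than it in Lin+ minus LT-HSC, by a median of -0.34. Of the other 66 second probes 39 were lower, with a median of -0.03. The limit of 3 was chosen after the values were seen.

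The remaining parts of the ribosome and its pathway were taken from lists. Fau and Rack1, cytosolic ribosomal proteins whose symbols the rule does not match, gave -0.76 and -1.13 in Lin+ minus progenitors and were each higher in progenitors than in ST-HSC by 0.63.
Ribosome assembly factors were also lower in Lin+ cells. Of 83 measured assembly genes, 62 reached 2-fold lower in Lin+ minus progenitors (median -1.47) and 0 were higher. With the median gene at 0 these counts were 45 and 1. Small nucleolar RNP proteins stood lowest among these lists (9 of 10, median -2.24), with Gar1 at -2.51, Nop10 at -2.45, Rrp9 at -2.43 and Nop56, a core box C/D protein, at -2.28. RNA polymerase I genes were lower for 6 of 11, led by Polr1b (-2.49), and large-subunit assembly genes for 26 of 33, led by Ppan (-2.61) and Nop2 (-2.41). Small-subunit processome genes were lower for 18 of 25, with Rcl1 at -2.34. The chaperones of single ribosomal proteins were lower for 5 of 6, with Grwd1, the Rpl3 chaperone, at -2.78.
In ST-HSC minus LT-HSC the assembly genes had a median of 0.29 where the ribosomal protein genes had -0.06. Mdn1, which strips assembly factors from the large subunit, was the 1 assembly gene at least 2-fold higher (1.18), where 5.81% of all genes were. In Lin+ minus LT-HSC the assembly genes had a median of -0.72, near the -0.79 of the ribosomal protein genes. The lower Lin+ signal was thus not particular to the ribosomal protein genes.
Translation factors were divided. In Lin+ minus progenitors, 14 of 33 initiation factors were lower, led by Eif4a1 (-1.93), and Eif5 was higher (1.09). With the median gene at 0, 4 initiation factors were lower, a share below the 14.1% of all genes. Of 9 elongation and termination factors 5 were lower, led by Eef1g (-1.68) and Eef1b2 (-1.56), and 2 with the median gene at 0. Among 18 measured TOP mRNAs outside the rule, which repeat some of these genes, 11 were lower (median -1.14), or 3 with the median gene at 0, and Pabpc1, the poly(A)-binding protein, was higher in Lin+ cells by 0.45.
Of 17 regulators of ribosomal protein output, 6 were 2-fold lower in Lin+ cells than in progenitors, or 4 with the median gene at 0, which is not far from the share of all genes. Myc, which activates ribosome synthesis, gave 4.203, 4.41, 4.42 and 1.41. Its relative Mycn gave 3.62, 1.56, 0.48 and -2.80, and was thus lower at each step. Larp1 gave 5.21, 5.52, 5.74 and 4.62, while Mtor stayed between -0.04 and 0.08. Eif4ebp1, a translation repressor under mTOR, was at least 2-fold higher in progenitors than in ST-HSC (1.22 ± 0.20). It was the 1 regulator of 17 called so, where 10% of all genes were.
The mitochondrial ribosomal proteins, encoded in the nucleus and built into a separate ribosome, gave a comparison set. In Lin+ minus progenitors 61 of 77 were at least 2-fold lower (median -1.33), or 28 with the median gene at 0. In progenitors minus ST-HSC their median was 0.72, with 9 genes 2-fold higher, near the 10% of all genes, among them Mrps18b (1.27) and Mrpl20 (1.24). With the median gene at 0 there were 3, where 6.85% of all genes were. In Lin+ minus LT-HSC their median was -0.35, against -0.79 for the cytosolic genes. At least 2-fold lower were 6 of 77, where 23.2% of all genes were, led by Mrps6 (-1.97) and Mrpl52 (-1.40). In ST-HSC minus LT-HSC the medians were 0.24 and -0.06. Whether these pairs of medians differ was not tested, since each fraction had 1 array.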

How the data were processed

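Total RNA (10 ng per sample, per the labels' protocols) was labelled with Cy3 and hybridised to 4 arrays of 1 slide. The deposited scanner files hold spot intensity, background-subtracted and detrended within each array by Agilent Feature Extraction 10.7.1.1, per the file headers and the submitters' processing notes, and not scaled between arrays. The value table, also deposited, gives each probe a linear ratio. It equalled the processed signal over 1 constant per array within 1% for 100% of 55246 single-spot probes, so its scale and direction are known, and its medians were 0.0619, 0.0630, 0.0704 and 0.0738.

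Outlier and control spots were left out, spots of a probe were averaged, and log2 signal was scaled to each array's 75th percentile (192, 217, 137 and 230 intensity units from LT-HSC to Lin+). Probes were named through RefSeq accessions (26762 of 55678, 48.1%), assembly GRCm38.p6, whose promoter coordinates are printed. The array design itself uses another build, mm9. The brightest probe over the 4 arrays stood for a gene. A side that was not well above background was raised, where it lay lower, to the dimmest signal that passed as well above background on that array (-2.94, -3.39, -2.87 and -3.47), and the difference is then a bound, given as at least N-fold. Such a bound whose order is unresolved counts as 0. Genes with a side above background entered a comparison, and calls are differences of at least 2-fold. The number of arrays limits the precision. Calling was tested on simulated data, made by adding known folds and spot error to the LT-HSC values. Such data hold no spread between arrays or mice, so they cannot show how reliable the calls are.

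Members and lists were chosen with earlier results of these data known. All members could be named. Values in every fraction were given for genes of the role lists and paralogs and, from other lists, for called genes with the largest differences, and some further members and Mtor, Larp1 and Tsr2 were picked as examples. Some genes of the lists are not reported here. Standard genes are the members without paralogs and Rps4l. Alternatives were a percentile restricted to probes detected on each of the arrays, quantile normalization, 8 spike-in probes, normexp (offset 50, limma 3.58.1 in R 4.3.3) on the median signal, the authors' table, the mean of all probes, no background filter, and the median gene set to 0.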

Additional observations from a re-analysis of the deposited data

How the results depend on the processing

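Over 8 alternatives, 78 of 110 recomputed results stayed within the error of a difference or within 1.5 times the count. Of these 78, 14 came from the authors' table, which moved none. It holds the same processed signal over 1 constant per array, so those 14 are not an independent check. With 1 array per fraction no value has a replicate check. The member median of progenitors minus ST-HSC was 0.53 at first, 0.27 with the percentile over detected probes, 0.33 with normexp, 0.33 with the median gene at 0, and turned to -0.028 after quantile normalization and -0.089 with spike-in scaling. That of Lin+ minus progenitors (-1.25) was -0.86 with detected probes, -0.26 with quantile, -0.64 with spike-ins, -1.03 with normexp and -0.83 with the median gene at 0. That of Lin+ minus LT-HSC (-0.79) was -0.38 with quantile, -0.50 with spike-ins and -0.59 with the median gene at 0, and that of ST-HSC minus LT-HSC (-0.06) was 0.25 with spike-ins. Members at least 2-fold lower in Lin+ minus progenitors (75) numbered 17, 2, 5 and 15 with detected probes, quantile, spike-ins and the median gene at 0, and in Lin+ minus LT-HSC (15) 9, 2, 0 and 1, and 9 with normexp. Members highest in progenitors (79) numbered 17 with quantile and 15 with spike-ins. Normexp left 0 of the single calls of Rpl39l in ST-HSC minus LT-HSC and progenitors minus ST-HSC and of Rpl3l in both Lin+ comparisons. The mean of all probes gave 1 member higher in progenitors minus ST-HSC, and no filter gave 1 lower in ST-HSC minus LT-HSC and 1 higher in progenitors minus ST-HSC. Constant scales change no gap between genes within a comparison. The cause of the other changes was not tested. Normexp used the median signal in place of the mean signal that had been planned. Signal over background limits Rpl3l, Rpl39l and Rpl10l. No paired analysis was possible because every sample is replicate 1 of its own fraction.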
